A study of Homo sapiens with 19 samples.

Results

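The 33 genes described here build ribosomes in the nucleolus or feed cell growth, and most belong to the group of genes widely used as a readout of the transcription factor MYC. The list was set by gene name, with earlier results of these data known, and all 33 were found in each of the 3 deposited expression tables, the largest of which holds 25365 genes. Of the 33, 7 code for proteins of the small nucleolar ribonucleoproteins (snoRNPs) or core nucleolar proteins, 5 for assembly factors of the small ribosomal subunit (40S), 10 for assembly factors of the large subunit (60S) and 1 for a subunit of RNA polymerase I. The others act in polyamine and pyrimidine synthesis (3), in the cell cycle, iron uptake or the tRNA synthetase complex (3) and in mitochondria (4).

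Ribosomes are assembled in the nucleolus. RNA polymerase I transcribes the long ribosomal RNA precursor there, snoRNPs methylate it and turn uridines into pseudouridine, and separate sets of assembly factors cut, fold and escort the small and the large subunit. MYC binds as a heterodimer with MAX to DNA elements of the E-box type and is known to raise transcription of many genes at every step of this chain, together with genes for nucleotides, polyamines, iron and protein folding. Diffuse large B-cell lymphoma of the activated B-cell-like (ABC) subtype depends on B-cell receptor and NF-kB signals. EGR1, the gene the hairpins of this study target, codes for a zinc finger transcription factor that is switched on within minutes of such signals.

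The RNA libraries came from OCI-LY10, TMD8 and SUDHL2, which are established human cell lines of ABC diffuse large B-cell lymphoma. Each culture carried 1 hairpin RNA: shEGR1#8 or shEGR1#9, both directed against EGR1, or the control hairpin shsc4. Every group, controls included, received 20 ng/ml doxycycline for 2 days to switch the hairpin on, and no library without hairpin or without doxycycline is part of these tables. OCI-LY10 has 3 libraries of each of shEGR1#8, shEGR1#9 and control, and TMD8 and SUDHL2 have 1 library of each. The other 4 samples of the series, EGR1 chromatin immunoprecipitations and their input, were not analysed here. The labels do not state whether the 3 libraries of a group are separate cultures or transductions, and p-values cover no more than their spread, which may be a technical one. RNA was measured in bulk, so fewer cells that express a gene and less RNA of it per cell cannot be told apart.

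Values are FPKM, that is, sequenced fragments scaled to gene length and library size, so levels of different genes can be set side by side per length. EGR1 had 10.0, 11.4 and 20.5 FPKM in the shEGR1#8 libraries, 10.8, 11.8 and 22.7 FPKM in the shEGR1#9 libraries and 8.57, 9.59 and 12.3 FPKM in the control libraries. The lowest EGR1 values were those of controls 1 and 2, and the difference of both shEGR1 labels from control was 0.42 log2 units (limma, adjusted p = 0.349). In TMD8, EGR1 had 10.8 and 9.95 FPKM in the shEGR1#8 and shEGR1#9 libraries, against 7.31 FPKM in the control library, and in SUDHL2 13.7 and 15.4 FPKM, against 17.0 FPKM. RNA of the targeted gene was thus not lower with the shEGR1 labels in OCI-LY10 and TMD8. In SUDHL2 it was lower with both labels, with 1 library per group. Groups are called below by their labels. Replicate 3 of shEGR1#8 stood apart from the other 8 OCI-LY10 libraries, with the lowest array weight (0.17). It was the lowest library for 13 of the 33 genes (39.4%, against 26.9% of all genes tested). It was the highest for 8 (24.2%, against 28.3% of all genes tested). The B-cell markers were expressed in all 3 lines (8 of 8 at 1 FPKM or more) and no myeloid marker reached 1 FPKM in OCI-LY10. Of 10 T and NK cell markers 3 reached 1 FPKM in OCI-LY10 (CD247, PRF1 and GZMB); the summed level of the 10 was 47.1 to 59.1 FPKM with shEGR1#8, 50.0 to 56.5 FPKM with shEGR1#9 and 33.8 to 38.3 FPKM in controls, and CD3G, CD2, NKG7 and GNLY were listed at 0 in all 9 libraries. In TMD8 and in SUDHL2 1 of 7 myeloid markers reached 1 FPKM. Of the 10 T and NK cell markers 2 did so in TMD8 and 1 in SUDHL2. Their summed level with shEGR1#8, shEGR1#9 and in the control was 194, 217 and 167 FPKM in TMD8. In SUDHL2 it was 256, 237 and 227 FPKM. Of 7 stroma and epithelium markers 1 reached 1 FPKM in OCI-LY10 and 2 in each of the other lines. The part of these markers in the results was not tested.

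In OCI-LY10 the nucleolar and growth genes as a group lay slightly lower with the EGR1 hairpins, and 3 of the 33 passed the test: the 60S assembly factor MRTO4, the transferrin receptor TFRC and the mitochondrial chaperonin HSPD1 fell by 0.35, 0.30 and 0.29 on the log2(FPKM + 1) scale. None rose, and 30 did not pass. A gene was called when the Benjamini-Hochberg adjusted p of limma's test, over the 10612 genes with at least 1 FPKM in at least 3 libraries, was under 0.05. With both shEGR1 labels together 8.56% of those genes were called (5.84% rose and 2.71% fell), and the 3 members that fell are 9.09% of the 33. At an unadjusted p under 0.05 there were 13 members, 12 lower and 1 higher, and 2767 of the 10612 genes. The count of 3 was 0 without any 1 of the controls, 1 without replicate 2 or without replicate 3 of shEGR1#9 and 6, all lower, without replicate 3 of shEGR1#8. Calls moved in the same way over the whole table. There 288 genes fell, with 85, 75 and 78 without control 1, 2 and 3. Without replicate 2 and replicate 3 of shEGR1#9 154 and 155 fell, and without replicate 3 of shEGR1#8 438 fell.

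The direction was more uniform than the size. A negative difference was seen in 26 of the 33 members (78.8%), against 44.2% of all genes tested. The members' median difference was −0.09 log2 units and that of all genes tested was 0.03, with single members between −0.35 and 0.27. For 11 members (33.3%) all 6 libraries with shEGR1 labels lay below all 3 controls, which 8.22% of all genes tested did. These 11 were NPM1, NOP56, WDR43, RRS1, MRTO4, NIP7, GNL3, PA2G4, TFRC, HSPD1 and HSPE1. PPAN was the 1 member with all 6 libraries above the controls (3.03% of members, against 12.9% of all genes), and for the other 21 the groups overlapped.

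**Figure D1:**
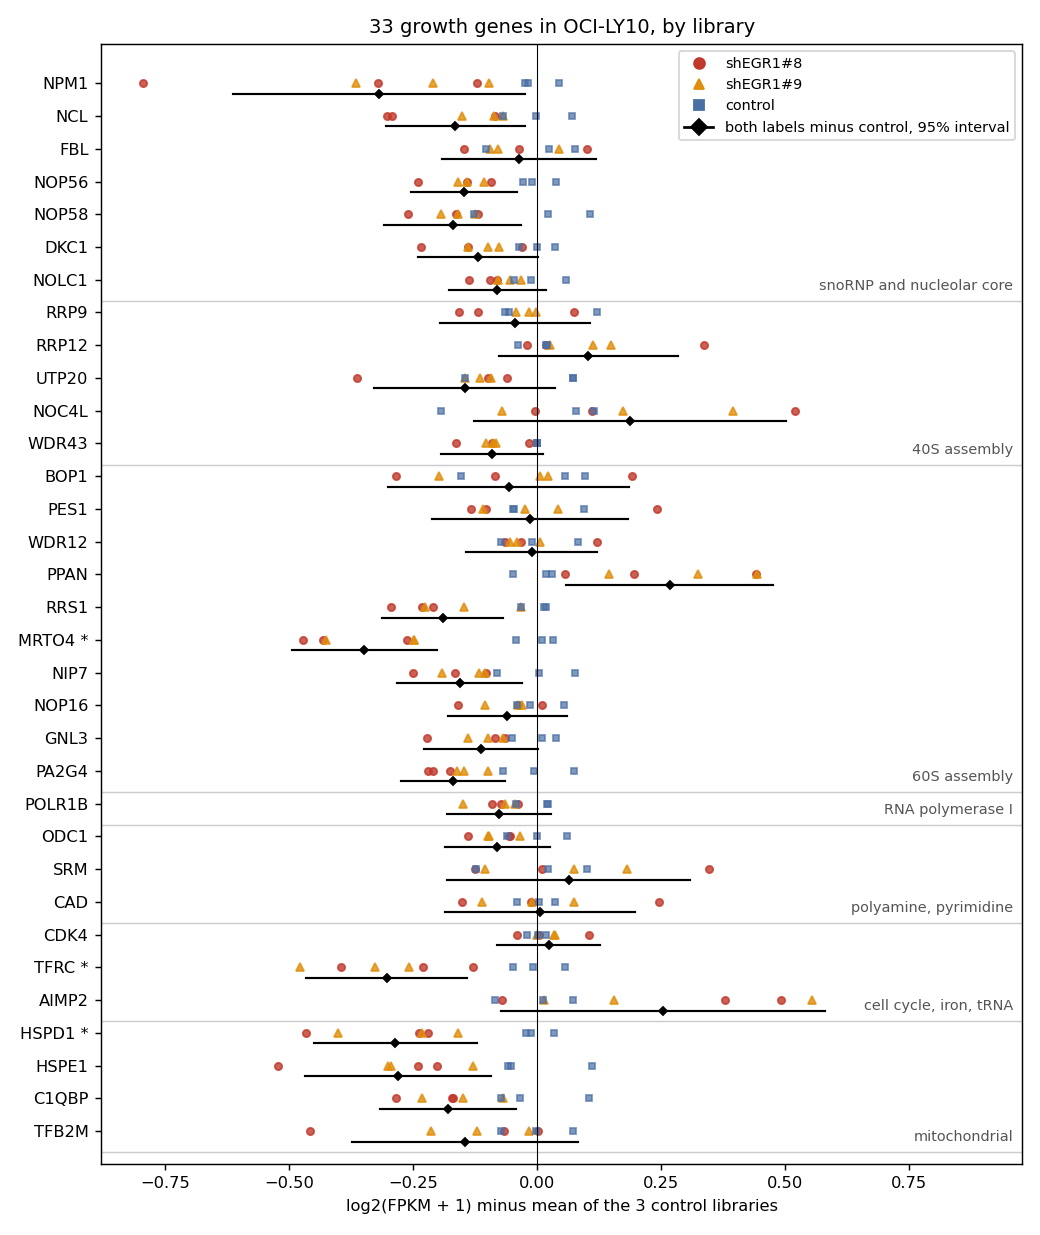
Each of the 33 genes in OCI-LY10, ordered by role, with the log2(FPKM + 1) of every library minus the mean of the 3 controls on the x axis (red circles shEGR1#8, orange triangles shEGR1#9, blue squares control). Black diamonds give the difference of both shEGR1 labels from control with its 95% interval, and asterisks mark MRTO4, TFRC and HSPD1, the members with an adjusted p under 0.05; most diamonds lie left of 0, between −0.35 and 0.27.

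The members are abundant RNAs. Their control means ran from 16.2 to 1640 FPKM with a median of 67.7 FPKM, against a median of 10.9 FPKM for all genes tested, and 16 of the 33 averaged over 100 FPKM. Together they made up 1.32, 1.40 and 1.21% of all FPKM in the shEGR1#8 libraries, 1.40, 1.39 and 1.32% in the shEGR1#9 libraries and 1.50, 1.49 and 1.52% in the controls. Every library with a shEGR1 label thus gave these genes together a smaller share than every control. The most abundant members weigh most in this sum: NPM1, NCL and HSPD1 averaged 1640, 901 and 624 FPKM in controls. Replicates of shEGR1#8 scattered most: the median coefficient of variation of a member was 8.68% with shEGR1#8, 4.46% with shEGR1#9 and 4.23% in controls.

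All 7 snoRNP and core nucleolar genes had a negative difference and none passed the test (median −0.15 log2 units; 4 of 7 at an unadjusted p under 0.05). NPM1 codes for nucleophosmin, an abundant nucleolar histone chaperone that shuttles pre-ribosomes. It had 1312, 1508 and 945 FPKM in the shEGR1#8 libraries, 1532, 1417 and 1272 FPKM in the shEGR1#9 libraries and 1689.8, 1618 and 1612 FPKM in the control libraries. All 6 libraries with shEGR1 labels were below the controls, and replicate 3 of shEGR1#8 was far below the rest. The difference of NPM1 was −0.32 log2 units (95% interval −0.61 to −0.02; adjusted p = 0.162) and without that replicate −0.22 (adjusted p = 0.0913). NPM1 has 50 named pseudogenes in RefSeq, so its value is uncertain where reads could be shared between near-identical copies.

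NCL codes for nucleolin, which binds the ribosomal RNA precursor and helps its transcription and folding. Its level was 729.9, 849 and 735 FPKM in the shEGR1#8 libraries, 859, 847 and 810.1 FPKM in the shEGR1#9 libraries and 899, 859 and 946 FPKM in the control libraries. One shEGR1#9 value and the lowest control nearly coincide, so the groups overlapped, and the difference was −0.16 log2 units (adjusted p = 0.135). NOP56 and NOP58 are the paired scaffold proteins of the box C/D snoRNP, the particle that guides methylation of ribosomal RNA. NOP56 averaged 259 ± 13.4 FPKM with shEGR1#8, 263 ± 4.81 FPKM with shEGR1#9 and 289 ± 6.81 FPKM in the controls (SD, n = 3 each), all 6 libraries with shEGR1 labels below the controls (difference −0.15, adjusted p = 0.0907). NOP58 differed by −0.17 (adjusted p = 0.12), with means of 118, 119 and 134 FPKM in shEGR1#8, shEGR1#9 and control libraries. Fibrillarin (FBL), the methyltransferase of the same particle, showed almost no difference at −0.04 (95% interval −0.19 to 0.12). Dyskerin (DKC1), the pseudouridine synthase of the box H/ACA snoRNP, differed by −0.12 (adjusted p = 0.198), and NOLC1, a chaperone that carries snoRNPs to the nucleolus, by −0.08 (adjusted p = 0.28). NCL, NOP56, NOP58 and DKC1 hold 3, 5, 4 and 2 snoRNA genes inside their own transcription units, per RefSeq.

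Of the 5 small subunit factors none passed the test, and none did so at an unadjusted p under 0.05; 3 differences were negative and 2 positive (median −0.04 log2 units). WDR43, a subunit of the U3 processome that couples it to RNA polymerase I transcripts, was the most even: 62.2, 59.1 and 56.1 FPKM in the shEGR1#8 libraries, 59.4, 59.2 and 58.6 FPKM in the shEGR1#9 libraries and 63.0, 63.0 and 63.0 FPKM in the control libraries. The 3 controls had the same value to 1 decimal and every library with a shEGR1 label was lower, for a difference of −0.09 (adjusted p = 0.241). UTP20, a large scaffold of the same processome, differed by −0.15 (adjusted p = 0.286) and RRP9, a U3 snoRNP protein, by −0.04 (adjusted p = 0.707). RRP12, an export factor of pre-ribosomes in yeast, differed by 0.10 and NOC4L, whose yeast counterpart joins the 40S factor Nop14, by 0.19 (adjusted p = 0.44 and 0.424). Both had their highest value in replicate 3 of shEGR1#8, 48.8 FPKM for RRP12 and 23.6 FPKM for NOC4L. POLR1B, the second largest subunit of RNA polymerase I, averaged 22.4 ± 0.428 FPKM with shEGR1#8, 22.1 ± 0.886 FPKM with shEGR1#9 and 23.5 ± 0.616 FPKM in the controls (difference −0.08, adjusted p = 0.328).

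Among the 10 large subunit factors 1 fell and none rose, and 9 had a negative difference (median −0.09 log2 units). An unadjusted p under 0.05 in limma's test was seen for 5 of the 10, of which PPAN was higher and the others lower. MRTO4 is a paralog of the ribosomal stalk protein P0 and holds its place on the pre-60S particle. It had 81.7, 94.7 and 84.0 FPKM in the shEGR1#8 libraries, 95.6, 95.6 and 84.5 FPKM in the shEGR1#9 libraries and 115, 110.4 and 116 FPKM in the control libraries. The groups did not overlap: the highest library with a shEGR1 label had 95.6 FPKM and the lowest control 110.4 FPKM. MRTO4 fell by 0.35 log2 units (SE 0.0644, 95% interval −0.49 to −0.20; limma, adjusted p = 0.0128). With shEGR1#8 alone the difference was −0.39 (adjusted p = 0.0232) and with shEGR1#9 alone −0.31 (adjusted p = 0.0501). It missed the threshold without any 1 of the 3 control libraries (adjusted p = 0.066, 0.0514 and 0.0769 without control 1, 2 and 3), with a difference of −0.38 to −0.32 when any library was left out.

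PPAN, a 60S factor of the Brix domain family, lay on the other side of the controls. It had 54.7, 60.4 and 71.8 FPKM in the shEGR1#8 libraries, 58.3, 66.2 and 72.0 FPKM in the shEGR1#9 libraries and 53.8, 53.3 and 50.8 FPKM in the control libraries. Every library with a shEGR1 label was above every control, with replicate 3 of each hairpin highest, and the difference of 0.27 log2 units did not pass the test (adjusted p = 0.108; 95% interval 0.06 to 0.48). PPAN shares its locus with P2RY11 and the readthrough gene PPAN-P2RY11, which is listed at 0 in all 6 libraries with shEGR1 labels and averaged 0.831 FPKM in controls. P2RY11 itself differed by 0.48 (adjusted p = 0.347), so the 3 overlapping genes may share fragments and PPAN is uncertain.

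PA2G4, a nucleolar protein also known as EBP1, averaged 231 ± 3.86 FPKM with shEGR1#8, 242 ± 5.56 FPKM with shEGR1#9 and 266 ± 13.3 FPKM in the controls (SD, n = 3 each; difference −0.17, adjusted p = 0.0576). RRS1, which in yeast brings the 5S RNP into the pre-60S particle, averaged 26.3 ± 0.820 FPKM with shEGR1#8, 28.5 ± 2.00 FPKM with shEGR1#9 and 31.4 ± 0.618 FPKM in the controls (difference −0.19, adjusted p = 0.0641). Both stayed just outside the threshold, and for RRS1 the highest library with a shEGR1 label, 30.63 FPKM, almost touched the lowest control, 30.65 FPKM. NIP7, which acts in processing of the 27S precursor in yeast, differed by −0.16 (adjusted p = 0.119), and GNL3, the GTPase nucleostemin, by −0.11 (adjusted p = 0.198), each with all 6 libraries below the controls. The 3 proteins of the PeBoW complex, which is needed for 60S formation, had small differences: BOP1 differed by −0.06, PES1 by −0.01 and WDR12 by −0.01. NOP16, the last of the 10, differed by −0.06 (adjusted p = 0.503). Adjusted p-values of BOP1, PES1 and WDR12 were 0.763, 0.929 and 0.919.

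No enzyme of polyamine or pyrimidine synthesis passed the test, nor had any an unadjusted p under 0.05. Ornithine decarboxylase (ODC1), the first step to polyamines and one of the oldest known MYC targets, had 496, 496 and 468 FPKM in the shEGR1#8 libraries, 482, 503 and 481 FPKM in the shEGR1#9 libraries and 537, 494 and 515 FPKM in the control libraries. The groups overlapped and the difference was −0.08 log2 units (95% interval −0.19 to 0.03; adjusted p = 0.311). Spermidine synthase (SRM) differed by 0.06 and CAD, the enzyme that starts pyrimidine synthesis, by 0.01 (adjusted p = 0.735 and 0.967). SRM ranged from 159 to 221 FPKM among the shEGR1#8 libraries, wider than its whole control range of 159 to 186 FPKM.

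Of the 3 members in the cell cycle, iron uptake and tRNA synthetase group, TFRC fell and the others did not pass. TFRC codes for the receptor through which cells take up iron-loaded transferrin. It had 113, 121 and 101 FPKM in the shEGR1#8 libraries, 111, 106 and 94.9 FPKM in the shEGR1#9 libraries and 128, 138 and 132 FPKM in the control libraries. The groups did not overlap, with 121 FPKM as the highest value of a shEGR1 label and 128 FPKM as the lowest control. TFRC fell by 0.30 log2 units (SE 0.0719, 95% interval −0.47 to −0.14; limma, adjusted p = 0.0343). The difference was −0.25 with shEGR1#8 alone (adjusted p = 0.119) and −0.35 with shEGR1#9 alone (adjusted p = 0.0444). The call ended without any 1 control (adjusted p = 0.0934, 0.139 and 0.127) and without replicate 2 or 3 of shEGR1#9 (adjusted p = 0.0701 and 0.0666).

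CDK4, the kinase that pairs with D-type cyclins in G1, was nearly level: it averaged 138 ± 7.26 FPKM with shEGR1#8, 138 ± 1.93 FPKM with shEGR1#9 and 136 ± 1.87 FPKM in the controls (SD, n = 3 each), a difference of 0.02 with a 95% interval of −0.08 to 0.13. AIMP2, a scaffold protein of the multi-tRNA synthetase complex, had 39.2, 28.5 and 42.5 FPKM in the shEGR1#8 libraries, 33.4, 30.3 and 44.4 FPKM in the shEGR1#9 libraries and 30.2, 28.2 and 31.5 FPKM in the control libraries. Its shEGR1 values overlapped the control range and extended above it, with both replicates 3 and replicate 1 of shEGR1#8 highest, and the difference of 0.25 did not pass (adjusted p = 0.299). AIMP2 overlaps the neighbouring gene EIF2AK1, which differed by −0.03 (adjusted p = 0.719).

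All 4 mitochondrial members had a negative difference, 1 of them fell, and the median of −0.23 log2 units was the lowest of the 7 role groups. HSPD1 (HSP60) forms the folding chamber of the mitochondrial matrix and HSPE1 (HSP10) its lid, and the genes are transcribed in opposite directions from start sites 105 bases apart. HSPD1 had 529, 535 and 451 FPKM in the shEGR1#8 libraries, 558, 531 and 472 FPKM in the shEGR1#9 libraries and 618, 614 and 638 FPKM in the control libraries. HSPE1 had 273, 266 and 218 FPKM in the shEGR1#8 libraries, 287, 255 and 256 FPKM in the shEGR1#9 libraries and 303, 301 and 339 FPKM in the control libraries. For both genes every library with a shEGR1 label was below every control and replicate 3 of shEGR1#8 was lowest.

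HSPD1 fell by 0.29 log2 units (SE 0.0727, 95% interval −0.45 to −0.12; limma, adjusted p = 0.0434). HSPE1 differed by nearly as much, −0.28 (95% interval −0.47 to −0.09), and did not pass (adjusted p = 0.0724). Neither hairpin alone passed for HSPD1 (−0.31 with shEGR1#8 and −0.26 with shEGR1#9; adjusted p = 0.0719 and 0.124). The HSPD1 call ended without any 1 control (adjusted p = 0.131, 0.123 and 0.175) and without replicate 2 or 3 of shEGR1#9 (adjusted p = 0.0828 and 0.0761), and HSPD1 and HSPE1 have 22 and 28 named pseudogenes that could share their reads.

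In OCI-LY10 the ratio of HSPD1 to HSPE1 FPKM lay in a narrow range. It was 1.94, 2.01 and 2.07 with shEGR1#8, 1.94, 2.08 and 1.84 with shEGR1#9 and 2.04, 2.04 and 1.88 in controls. C1QBP, a matrix protein needed for mitochondrial translation, averaged 54.9 ± 2.49 FPKM with shEGR1#8, 57.2 ± 3.30 FPKM with shEGR1#9 and 63.6 ± 4.24 FPKM in the controls (difference −0.18, adjusted p = 0.103). TFB2M, which opens promoters for the mitochondrial RNA polymerase, differed by −0.15 (adjusted p = 0.389), with 19.4 FPKM in replicate 3 of shEGR1#8 as its lowest value against 25.7 to 28.5 FPKM in controls.

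**Figure D2:**
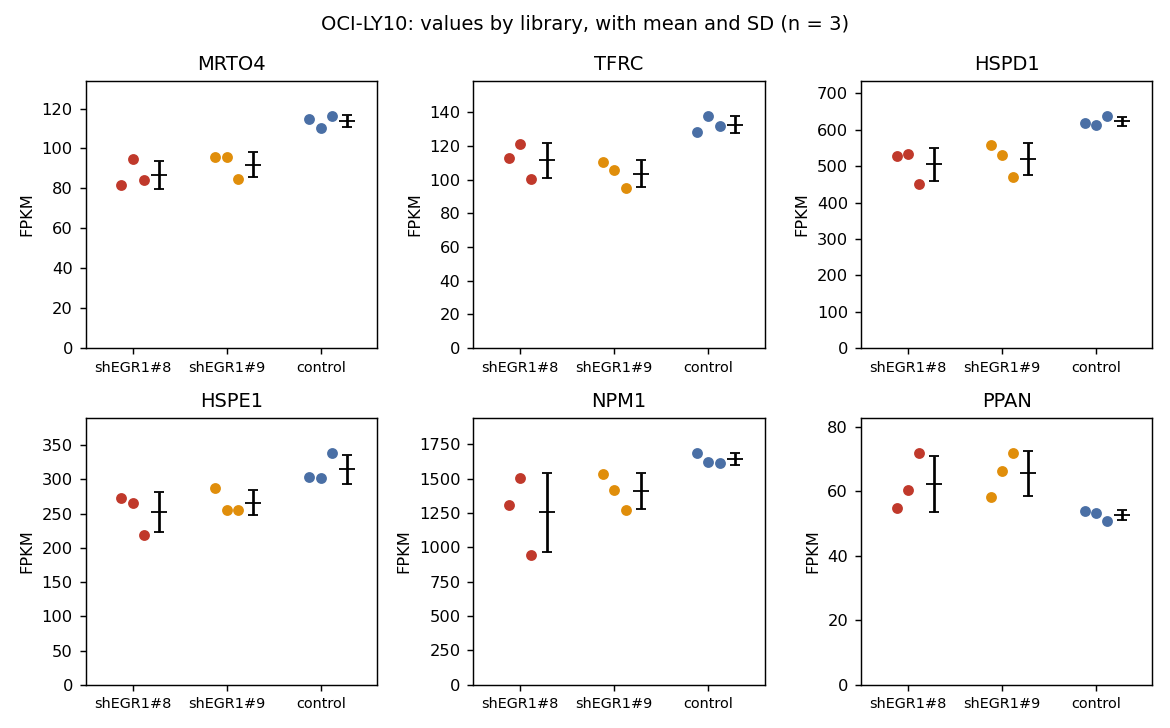
FPKM of MRTO4, TFRC, HSPD1, HSPE1, NPM1 and PPAN in each OCI-LY10 library (points) with the mean and SD of the 3 libraries of shEGR1#8, shEGR1#9 and control; each y axis starts at 0. PPAN lies above the controls in all 6 libraries with shEGR1 labels, the other 5 genes below them.

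**Figure D3:**
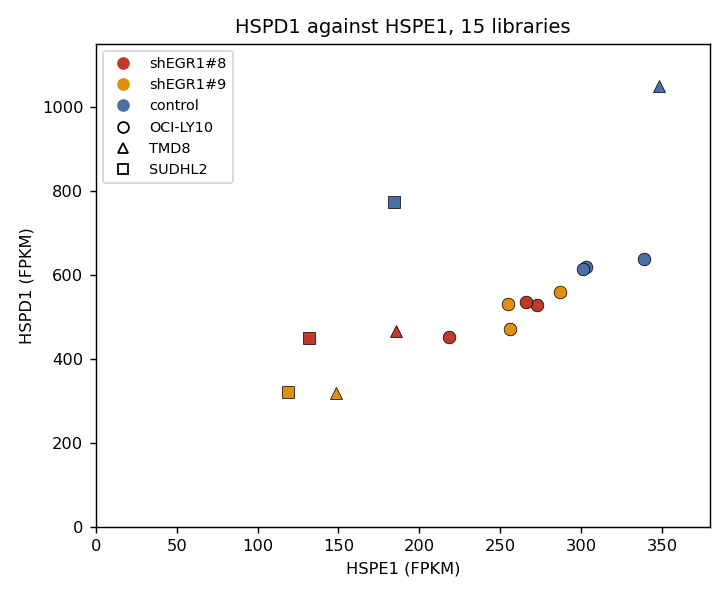
FPKM of HSPD1 (y axis) against FPKM of HSPE1 (x axis) in the 15 libraries, coloured by label and shaped by cell line. In OCI-LY10 the 9 libraries keep a ratio between 1.84 and 2.08; in TMD8 and SUDHL2 the control has both the highest HSPD1 and the highest ratio, 3.02 and 4.20.

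Promoter sequences are shown for the 3 members that fell, because the E-box CACGTG is the best known binding sequence of MYC and MAX and the HSPD1 window is shared with HSPE1. They are RefSeq sequences of GRCh38.p14, 250 bases before to 50 bases after the gene's start, written 5′ to 3′ on the gene's own strand. Capitals mark CACGTG. The MRTO4 window is chr1:19251555-19251854 on the plus strand, the TFRC window chr3:196082041-196082340 on the minus strand and the HSPD1 window chr2:197500225-197500524 on the minus strand.
MRTO4: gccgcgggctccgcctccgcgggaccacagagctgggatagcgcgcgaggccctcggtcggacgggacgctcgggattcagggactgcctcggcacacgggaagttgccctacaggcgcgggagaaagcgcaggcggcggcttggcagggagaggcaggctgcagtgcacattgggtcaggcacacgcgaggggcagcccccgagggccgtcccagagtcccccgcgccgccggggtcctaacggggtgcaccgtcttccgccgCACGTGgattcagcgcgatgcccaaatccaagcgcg
TFRC: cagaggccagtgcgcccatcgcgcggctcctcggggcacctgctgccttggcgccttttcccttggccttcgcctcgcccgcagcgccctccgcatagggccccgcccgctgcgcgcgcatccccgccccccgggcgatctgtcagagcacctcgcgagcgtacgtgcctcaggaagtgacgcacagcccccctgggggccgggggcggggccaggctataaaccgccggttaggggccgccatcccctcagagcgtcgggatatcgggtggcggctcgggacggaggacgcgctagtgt
HSPD1: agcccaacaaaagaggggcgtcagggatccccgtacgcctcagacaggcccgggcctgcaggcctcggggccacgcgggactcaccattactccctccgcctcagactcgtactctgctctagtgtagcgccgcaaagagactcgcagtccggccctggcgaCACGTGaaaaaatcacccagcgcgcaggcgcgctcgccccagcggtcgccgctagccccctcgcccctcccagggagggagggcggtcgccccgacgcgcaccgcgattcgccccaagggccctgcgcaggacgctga

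The MRTO4 window holds 1 CACGTG at 15 to 20 bases after the start and the HSPD1 window 1 at −88 to −83. The HSPE1 window shares 204 bases with that of HSPD1, and the same CACGTG lies at −22 to −17 from the HSPE1 start. No CACGTG was found in the TFRC window. CACGTG was held by 10 (35.7%) of the 28 members with a RefSeq promoter sequence, against 10.9% of 7830 genes tested in OCI-LY10 and 7.43% of 27305 promoters in all. The 10 are CDK4 (with 3 matches), FBL, HSPD1, HSPE1, MRTO4, PES1, RRP9, SRM, UTP20 and WDR43. HSPD1 and HSPE1 are counted for the same match. Most members are genes used as a readout of MYC, so the higher share describes how the list was made and is no result of these data. BOP1, RRS1, NOLC1, NOP58 and RRP12 were not searched.

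Members with and without CACGTG both lay mostly below 0 in OCI-LY10. The median was −0.07 log2 units over the 10 members with it and −0.12 over the 18 without, and 8 of 10 and 14 of 18 were negative. GCGNGGGCG, a form of the element bound by EGR1, was found on either strand in the windows of NOP56 and SRM (2 of 28, 7.14%), against 15.1% of genes tested and 9.28% of all promoters. CCGGAAG, an ETS family element, was in 6 of 28 (21.4%), against 22.5 and 10.7%. CACGTG reads the same on both strands, the other motifs were searched on both, and 0 pairs of matches of different motifs shared a base in the 28 windows. A match is a run of letters in this window and says nothing of binding.

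Each hairpin was also set against the controls by itself. With shEGR1#8 1 member fell, MRTO4 (3.03%, against 1.62% of all genes tested), and 12 had an unadjusted p under 0.05, all lower. With shEGR1#9 1 member fell, TFRC (3.03%, against 1.54% of all genes), and 8 had an unadjusted p under 0.05, 7 lower and 1 higher. Median differences were −0.10 and −0.09 log2 units, 24 members were lower with both labels and 6 higher with both. The hairpins share their controls, so these counts are not independent of each other. Both calls ended without any 1 control. With shEGR1#8 3 members fell without its replicate 2. With shEGR1#9 none was called without any 1 of its own replicates. Without replicate 2 and replicate 3 of shEGR1#8, 2 and 4 members were called with shEGR1#9. Calls among all genes shifted too. With shEGR1#8 they were 566, with 136, 161 and 134 without control 1, 2 and 3 and 696 without its replicate 2. With shEGR1#9 they were 540, with 168, 192 and 144 without control 1, 2 and 3. They were 222, 148 and 169 without its own replicate 1, 2 and 3. Without replicate 2 and replicate 3 of shEGR1#8 they were 524 and 1143.

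Tested directly, shEGR1#9 minus shEGR1#8 called none of the 33 members and 0.0% of the 10612 genes (limma; lowest adjusted p = 0.9997; 0 members and 267 genes at an unadjusted p under 0.05; 1 gene was called with no filter on low values, 9 and 8 without replicate 1 and replicate 2 of shEGR1#8, and 0 to 2 without any other 1 library). Differences between the hairpins ran from −0.10 to 0.19 log2 units over the members, and the outermost bounds of their 95% intervals were −0.41 and 0.53. For the least precise members a difference between the hairpins as large as that of MRTO4 from control lies within the interval. Libraries were not paired by replicate number in this test.

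**Figure D4:**
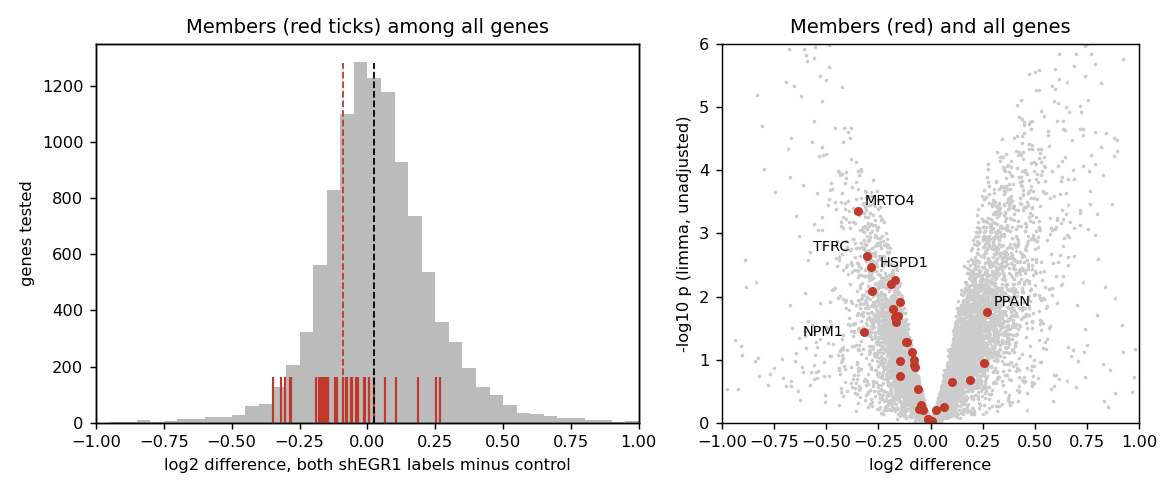
Left, number of genes by difference of both shEGR1 labels from control in log2(FPKM + 1) over the 10612 genes tested in OCI-LY10, with the 33 members as red ticks and dashed lines at the medians of members (−0.09, red) and all genes (0.03, black). Right, −log10 of the unadjusted p against the same difference, members in red; MRTO4, TFRC and HSPD1 lie highest among the members, and genes beyond 1 log2 unit or above 6 on the y axis are not shown.

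MYC itself showed a mean difference near 0 in OCI-LY10, with libraries on both sides of the controls. It had 88.6, 83.1 and 104 FPKM in the shEGR1#8 libraries and 82.9, 87.8 and 99.9 FPKM in the shEGR1#9 libraries. The control libraries had 91.4, 88.2 and 90.0 FPKM. Replicate 3 of each hairpin was above every control, and the other hairpin libraries were within or below the control range. MYC averaged 92.0 ± 11.1 FPKM with shEGR1#8, 90.2 ± 8.73 FPKM with shEGR1#9 and 89.9 ± 1.60 FPKM in the controls (SD, n = 3 each), a difference of 0.01 log2 units (SE 0.0823; adjusted p = 0.924). Of 9 tested genes of the MYC network 1 rose and 1 fell, against 5.84 and 2.71% of all genes tested. MXI1, a MAX partner that represses E-box genes and is also called MXD2, rose by 0.33 (SE 0.0684, adjusted p = 0.0199), averaging 8.34 ± 0.846 FPKM with shEGR1#8, 8.07 ± 0.470 FPKM with shEGR1#9 and 6.31 ± 0.235 FPKM in the controls. MLX, a MAX-like partner of the glucose-sensing MondoA and ChREBP, fell by 0.59 (SE 0.0543, adjusted p = 0.00049), averaging 21.9 ± 0.127 FPKM with shEGR1#8, 21.7 ± 0.971 FPKM with shEGR1#9 and 33.4 ± 2.18 FPKM in the controls. MAX differed by −0.03 (adjusted p = 0.748), and the MAX-binding repressors MNT, MXD1 and MXD3 by 0.10, 0.25 and 0.12 (adjusted p = 0.612, 0.0917 and 0.444); MXD4 did not reach the level needed for testing. MXI1 missed the threshold without any 1 control and without replicate 3 of shEGR1#9.

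Negative differences were also common among genes of the same pathway outside the 33. Over 4 other lists of snoRNP, 40S, 60S and RNA polymerase I and III genes, 132 genes were tested, 5 fell (3.79%, against 2.71% of all genes tested), none rose and 127 did not pass. A negative difference was seen in 101 of the 132 (76.5%, against 44.2% of all genes tested), with a median of −0.08 log2 units. The count of 5 was 0 without control 2, 1 without control 1, 2 without control 3 or replicate 2 or 3 of shEGR1#9, 3 without replicate 1 of shEGR1#9 and 9 without replicate 2 or 3 of shEGR1#8. The 5 were RRP1B (−0.28, adjusted p = 0.0114), a 60S factor, WDR3 (−0.29, adjusted p = 0.0318), a processome protein, ZNHIT6 (−0.28, adjusted p = 0.0383), a box C/D snoRNP assembly factor, RSL1D1 (−0.38, adjusted p = 0.0416), a nucleolar protein with a ribosomal L1 domain, and POLR3F (−0.47, adjusted p = 0.00872), a subunit of RNA polymerase III. None of 79 ribosomal protein genes was called (15 at an unadjusted p under 0.05), 53 were negative (67.1%) and the median was −0.08; without replicate 2 of shEGR1#8 6 fell and 1 rose, and 1 fell without replicate 3 of shEGR1#8 or replicate 1 of shEGR1#9. RPL10 and RPS12 had the lowest p of the large and the small subunit proteins, at −0.22 and −0.25 (adjusted p = 0.0767 and 0.0815).

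Other growth lists held single calls, where 8.56% of all genes tested were called. PPAT, the first enzyme of purine synthesis, fell by 0.44 (adjusted p = 0.0064), the 1 call among 25 genes of nucleotide, one-carbon and polyamine synthesis. The tryptophanyl-tRNA synthetase WARS, an interferon-induced gene, rose by 0.30 (adjusted p = 0.0106), the 1 call among 21 tRNA synthetases and scaffold proteins. IREB2, an iron regulatory protein known to stabilise TFRC RNA, fell by 0.37 (adjusted p = 0.0167), the 1 call among 11 iron genes. EIF2B3, a subunit of the initiation factor eIF2B, fell by 0.24 (adjusted p = 0.0264), the 1 call among 31 translation factors, and none of 16 other mitochondrial chaperones, proteases and RNA synthesis genes was called (4 at an unadjusted p under 0.05; AFG3L2 and HSPA9 had the lowest p, with differences of −0.19 and −0.14 and adjusted p = 0.0944 and 0.131). The calls of IREB2 and EIF2B3 ended without any 1 control and that of WARS without control 1 or 2, and EIF2B3 was also lost without replicate 2 or 3 of shEGR1#9.

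Calls were made among the regulators around CDK4. Of 18 tested, CDKN1A, which codes for the CDK inhibitor p21, rose by 1.03 (adjusted p = 0.000182), while SKP2, a ubiquitin ligase subunit that targets p27, cyclin D2 (CCND2) and E2F2 fell by 0.83, 0.33 and 0.35 (adjusted p = 0.00105, 0.00571 and 0.00585). The other 14 did not pass. Over all genes tested 5.84% rose and 2.71% fell. In TMD8 CDKN1A differed by 0.71 and 1.07 and SKP2 by −0.80 and −0.42 with shEGR1#8 and shEGR1#9, on the scaled log2 values introduced next, while CCND2 and E2F2 were higher there, by 1.37 and 1.13 and by 0.39 and 0.60. In SUDHL2 CDKN1A differed by 1.42 and 1.51, SKP2 by −0.57 and −0.82, CCND2 by −0.43 and −0.33 and E2F2 by −0.08 and 0.24.

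TMD8 and SUDHL2 have 1 library per group, so there is no test and no spread between replicates. Libraries were scaled within a table by the median ratio over genes at 1 FPKM or more in all 3 libraries, and each shEGR1 library was compared with its control on log2(scaled FPKM + 1). A gene was counted past the fold at 0.5 log2 units, and the 2 comparisons of a line share 1 control. In TMD8 8 of the 33 members (24.2%) were past the fold and lower with both labels, against 13.9% of 11807 genes, and none was higher with both. With shEGR1#8 10 were lower (18.3% of all genes) and 2 higher, NCL and UTP20 (20.9% of all genes). With shEGR1#9 12 were lower (19.9% of all genes) and none higher.

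Of the 8, HSPD1, HSPE1, NPM1, GNL3 and PA2G4 are also among the 11 members that lay below all OCI-LY10 controls, 5 of 8 and 5 of 11. The share of all genes with both traits was not counted. HSPD1 had 466 and 319 FPKM in the shEGR1#8 and shEGR1#9 libraries, against 1050.2 FPKM in the control library, differences of −1.03 and −1.66 log2 units. HSPE1 had 186 and 148 FPKM in the shEGR1#8 and shEGR1#9 libraries, against 348 FPKM in the control library (−0.76 and −1.17). NPM1 had 1084 and 1136 FPKM in the shEGR1#8 and shEGR1#9 libraries, against 2381 FPKM in the control library (−0.99 and −1.01). The control library was the highest for each of these 3 genes.

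ODC1 had 273 and 323 FPKM in the shEGR1#8 and shEGR1#9 libraries, against 586 FPKM in the control library (−0.96 and −0.80). NOP58 had 64.6 and 64.4 FPKM in the shEGR1#8 and shEGR1#9 libraries, against 128 FPKM in the control library (−0.84 and −0.93). TFB2M had 19.5 and 17.3 FPKM in the shEGR1#8 and shEGR1#9 libraries, against 37.1 FPKM in the control library (−0.76 and −1.01). In OCI-LY10 these 3 had not passed the test. GNL3 (−0.56 and −0.80) and PA2G4 (−0.56 and −0.64) complete the 8, and the nearest members outside are NIP7 (−0.48 and −0.54) and C1QBP (−0.62 and −0.45).

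Members called in OCI-LY10 other than HSPD1 did not follow in TMD8. MRTO4 had 65.4 and 68.6 FPKM in the shEGR1#8 and shEGR1#9 libraries, against 68.7 FPKM in the control library (0.07 and 0.05; −0.07 and −0.002 on the values as deposited), and TFRC 170.2 and 134 FPKM in the shEGR1#8 and shEGR1#9 libraries, against 153 FPKM in the control library (0.30 and −0.13). NCL differed by 0.76 and 0.13, AIMP2 by −0.18 and −0.62 and PPAN by −0.14 and 0.35. The remaining 18 members lay between −0.66 and 0.85: RRP9, NOP56, DKC1, POLR1B, BOP1, RRS1 and NOP16 were lower with both labels, as were WDR43 and WDR12, which passed −0.5 with shEGR1#9 only; BOP1 did so with shEGR1#8 only. FBL, RRP12, UTP20, NOC4L, SRM, CAD and CDK4 were higher with both, and NOLC1 and PES1 had one of each. MYC had 91.9 and 110.3 FPKM in the shEGR1#8 and shEGR1#9 libraries, against 115 FPKM in the control (−0.18 and −0.01).

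The sign of the TMD8 median depended on the scaling. With each label 22 of 33 members (66.7%) were below 0, against 47.6 and 46.3% of all genes with shEGR1#8 and shEGR1#9, and the members' medians were −0.17 and −0.13 against 0.03 and 0.05 for all genes. Short RNA genes such as snoRNAs took 61.5 and 58.0% of the FPKM in the shEGR1#8 and shEGR1#9 libraries and 36.3% in the control. When libraries were scaled to the sum of all other genes the members' medians became 0.09 and 0.12 while those of all genes became 0.26 and 0.26, and 10 members were lower and 17 higher with both labels. On that scaling 5 members were past the fold and lower with both, against 7.90% of all genes: NPM1 (−0.72 and −0.76), NOP58 (−0.58 and −0.68), ODC1 (−0.69 and −0.55), HSPD1 (−0.76 and −1.41) and TFB2M (−0.50 and −0.76). Ribosomal protein genes past the fold and lower with both labels were 15 of 47 of the large and 10 of 30 of the small subunit on that scaling (medians −0.40 and −0.52, and −0.34 and −0.41, with shEGR1#8 and shEGR1#9). On the median-ratio scaling they were 30 of 47 and 15 of 30, against 13.9% of all genes (medians −0.66 and −0.77, and −0.61 and −0.67).

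In SUDHL2 differences were smaller and mostly of 1 direction. HSPD1 was the 1 member past the fold with both labels (3.03%, against 2.92% of 11631 genes): it had 449 and 321 FPKM in the shEGR1#8 and shEGR1#9 libraries, against 774 FPKM in the control library (−0.79 and −1.27). With shEGR1#8 it was also the 1 member past the fold (5.55% of all genes). With shEGR1#9 5 members were, HSPD1, NPM1, NOP58, NIP7 and HSPE1 (against 11.2% of all genes), all lower. HSPE1 had 132 and 119 FPKM in the shEGR1#8 and shEGR1#9 libraries, against 184 FPKM in the control library (−0.49 and −0.64), and NPM1 1019 and 896 FPKM in the shEGR1#8 and shEGR1#9 libraries, against 1273 FPKM in the control library (−0.33 and −0.51).

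Below 0 were 30 of the 33 members with shEGR1#8 (90.9%, against 49.8% of all genes) and 28 with shEGR1#9 (84.8%, against 48.9%). Medians were −0.19 and −0.21, against 0.00 and 0.01 over all genes, and 26 members were lower with both labels. Above 0 with both was PPAN (0.09 and 0.13), as it had been in OCI-LY10. MRTO4 differed by −0.13 and −0.11, TFRC by 0.13 and −0.06, NCL by −0.32 and −0.36, ODC1 by −0.39 and −0.35 and AIMP2 by −0.02 and −0.24. The other members with both signs were NOLC1, NOC4L, PES1, CAD and CDK4. Short RNA genes took 53.5 and 50.4% of the FPKM with shEGR1#8 and shEGR1#9 and 54.4% in the control, and scaling without them left 22 members lower with both labels, medians of −0.07 and −0.14, and HSPD1 past the fold. On the median-ratio scaling 6 of 47 large and 3 of 30 small subunit ribosomal protein genes were past the fold and lower with both labels, against 2.92% of all genes; on the scaling without short RNA genes 2 and 0 were, against 2.15%. MYC had 119 and 115 FPKM with shEGR1#8 and shEGR1#9, against 126 FPKM in the control (−0.09 and −0.13).

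HSPD1 and HSPE1 did not keep a fixed ratio outside OCI-LY10. In TMD8 the HSPD1 to HSPE1 ratio was 2.51 and 2.15 with shEGR1#8 and shEGR1#9, against 3.02 in the control, and in SUDHL2 3.41 and 2.70, against 4.20. HSPD1 was thus further below its control than HSPE1 with each label in both lines.

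**Figure D5:**
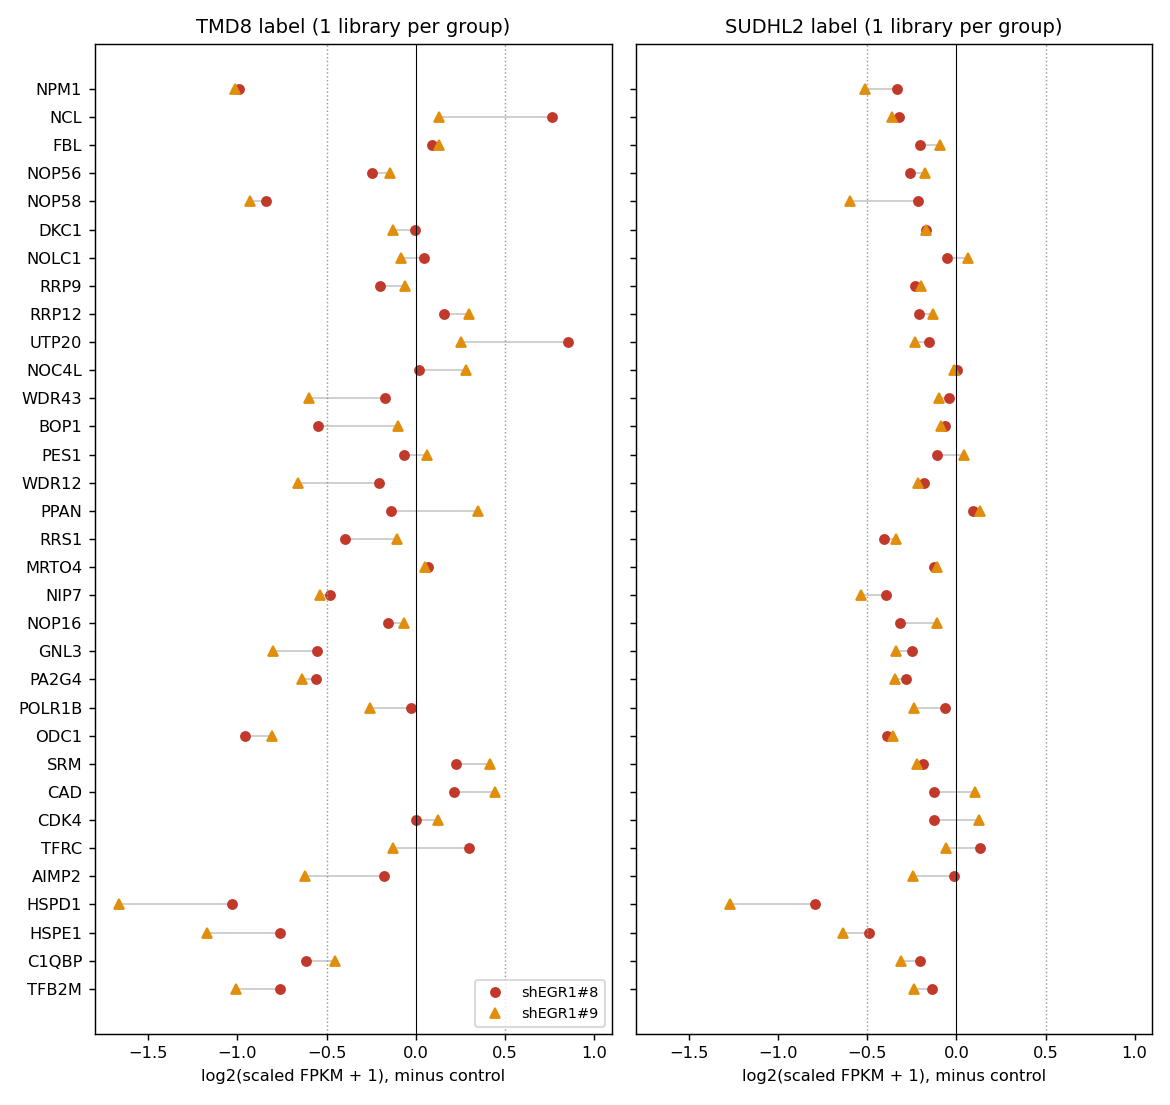
Difference of shEGR1#8 (red circles) and shEGR1#9 (orange triangles) from the control library in log2(scaled FPKM + 1) for the 33 genes in TMD8 and SUDHL2, 1 library each, with dotted lines at −0.5 and 0.5. In TMD8 8 genes pass −0.5 with both labels; in SUDHL2 HSPD1 does, while 26 of 33 genes lie below 0 with both.

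Across the 3 lines 9 members (27.3%) had all 6 OCI-LY10 libraries with shEGR1 labels below the controls and both hairpin libraries below the control in TMD8 and in SUDHL2, against 424 of 9597 genes measured in all 3 tables (4.42%). They are NPM1, NOP56, WDR43, RRS1, NIP7, GNL3, PA2G4, HSPD1 and HSPE1. With TMD8 and SUDHL2 scaled without short RNA genes 6 of them remained, NPM1, NIP7, GNL3, PA2G4, HSPD1 and HSPE1. On the values as deposited 10 members were lower in this way, the 9 and MRTO4. The share of all genes was not counted on either of these scalings. The 2 hairpins share a control within each line, so these counts are a description. MLX, the MYC network gene that fell in OCI-LY10, differed by −0.73 and −0.52 in TMD8 and by −0.38 and 0.10 in SUDHL2 with shEGR1#8 and shEGR1#9, and MXI1, which rose in OCI-LY10, by −0.77 and −0.63 in TMD8 and by 0.31 and 0.28 in SUDHL2. MAX differed by −0.38 and −0.41 in TMD8 and by −0.02 and 0.09 in SUDHL2, MNT by 0.10 and 0.65 and by −0.01 and 0.38, MXD1 by 0.32 and 0.13 and by 0.63 and 0.46, MXD3 by −0.28 and −0.29 and by −0.27 and −0.23, and MXD4 by 0.33 and 0.48 and by 0.31 and 0.06.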

How the data were processed

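RNA was extracted with an RNeasy kit and libraries prepared with Illumina's TruSeq RNA kit (labels' protocols). The authors deposited 1 table per cell line with a value per gene and library, read here as FPKM from the values, since no header names the unit. Bowtie2, HISAT, StringTie and hg19 are named in the submitters' processing notes; roles, versions, strand setting and annotation are not stated there. Without read totals no counting interval can be given. Lines with a repeated name (4, 10 and 10 in OCI-LY10, TMD8 and SUDHL2) were left out, as were 430 lines at the end of the SUDHL2 table, 429 of which equal the end of the TMD8 table. ChIP samples were not analysed here.

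Groups were taken from titles. OCI-LY10 was fitted with limma 3.58.1 (R 4.3.3) on log2(FPKM + 1), 1 mean per group and a variance trend, after a filter of 1 FPKM in 3 of 9 libraries; p-values were adjusted over 10612 genes. Fold changes on this scale understate those of low genes. TMD8 and SUDHL2 were compared as scaled differences with no test. Tables may have been normalized separately, so comparisons stayed within a table. The script was tested on simulated data with the spread of the OCI-LY10 genes, for both labels against control. Of 50 genes lowered by 0.25 log2 units 15 were called, and of 50 lowered by 0.5 units 29 were. A member that did not pass is therefore not shown to be unchanged. Other steps used Python 3.11.15, pandas 2.3.3, numpy 2.4.6 and matplotlib 3.10.9.

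The members and lists were chosen with earlier results of these data known. Values per library are printed for members called, the 5 with the highest control mean and the 4 uncalled with the largest difference, plus WDR43, chosen after its values were seen; the other pathway lists are given by counts and up to 4 called genes. Alternatives were the pseudocount, filter, scaling, array weights, the replicate block, the groups in the fit, the fold, and leaving out each library; leaving out the replicates 3 was added after the data were seen. Promoters are RefSeq sequences of GRCh38.p14.

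Whether replicate numbers pair the OCI-LY10 libraries was checked by correlating deviations from the group means over genes. Same-numbered libraries of the 2 hairpins correlated at 0.134 to 0.26 in all 3 pairs. Replicate 1 of shEGR1#9 and replicate 2 of shEGR1#8, which differ in number, correlated at 0.146. The comparison of the hairpins given in the results did not use this pairing. A paired fit of the hairpin groups was run as an alternative. Same-numbered libraries of a hairpin and the control correlated at −0.188 to 0.06 and were not taken as paired.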

Additional observations from a re-analysis of the deposited data

Results flagged for a closer look

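MRTO4 had all 6 libraries with shEGR1 labels below the controls in OCI-LY10 (−0.35 log2 units) and was above the control with both labels in TMD8, by 0.0691 and 0.0515; on the values as deposited the TMD8 differences were −0.07 and −0.002. The difference between the lines was not tested, and neither TMD8 value passes the fold of 0.5.

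Between TMD8 and SUDHL2 6 members lay on opposite sides of their control with both labels, higher in TMD8 and lower in SUDHL2. With shEGR1#8 in TMD8 NCL was higher by 0.7644, UTP20 by 0.8532, SRM by 0.2251, RRP12 by 0.1562, FBL by 0.0934 and MRTO4 by 0.0691 log2 units; on the values as deposited FBL was −0.05 there. NCL and UTP20 were the largest of these with shEGR1#8 and stood at 0.13 and 0.25 with shEGR1#9. With 1 library per group none of these differences was tested.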

How the results depend on the processing

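In OCI-LY10 the members' median difference of both labels from control stayed between −0.12 and −0.08 log2 units under every alternative run. The count of members called did not. For both labels it was 3, with 1 without a filter, 5 with median-ratio scaling, 8 with array weights (7 lower, 1 higher), 0 without replicate 3 of all groups and 0 to 6 when 1 library was left out; it was 0 without any 1 control, 1 without replicate 2 or 3 of shEGR1#9 and 6 without replicate 3 of shEGR1#8. For shEGR1#8 alone it was 1, with 2 under median-ratio scaling, quantile normalization or array weights, 0 with only the groups compared, 3 without both hairpin replicates 3, 0 without replicate 3 of all groups and 0 to 3 with 1 library left out. For shEGR1#9 alone it was 1, with 0 without a filter or with quantile normalization, 2 with a filter of 5 FPKM, median-ratio scaling or only the groups compared, 8 with array weights, 0 without replicate 3 of all groups and 0 to 4 with 1 library left out. Genes called over the whole table for both labels were 908, with 285 to 1312 with 1 library left out, 1914 with array weights and 353 without replicate 3 of all groups. With shEGR1#8 they were 566, with 513 under median-ratio scaling, 470 under quantile normalization, 749 with array weights and 127 with only the groups compared. With shEGR1#9 they were 540, with 449 without a filter, 442 with a filter of 5 FPKM and 514 with median-ratio scaling. Quantile normalization gave 466 with shEGR1#9, only the groups compared 1153 and array weights 1950.

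MRTO4 was called in 15 of 19 alternatives, TFRC and HSPD1 in 11 of 19 each; with no filter TFRC and HSPD1 had adjusted p = 0.0529 and 0.0784 and with quantile normalization 0.051 and 0.122. RRS1 (0.0414 with median-ratio scaling), PA2G4 (0.0444), NOP56 (0.0263 with array weights), HSPE1 (0.0234), PPAN (0.0342, higher) and NCL (0.0381 without replicate 2 of shEGR1#8) were called under some alternatives. With the replicate block 3 members were called for both labels, and 775 genes in all; between the hairpins 0 members and 0 genes were called, also with the block and only the hairpin groups in the fit, which was added after the data were seen.

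In TMD8 members past the fold with both labels were 5 when scaled without short RNA genes and 1 at a fold of 1, against 8; at a fold of 1 they were 1 with shEGR1#8 and 4 with shEGR1#9. The medians turned to 0.0888 and 0.1221 on the scaling without short RNA genes. In SUDHL2 members past the fold were 3 with shEGR1#9 on that scaling, and 0 with both labels, 0 with shEGR1#8 and 1 with shEGR1#9 at a fold of 1. The share of all genes was not counted at a fold of 1, nor for shEGR1#9 alone on the scaling without short RNA genes. The cause of these shifts was not tested. Read totals are not known, so the depth behind single values could not be set beside them.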
